A study of Mus musculus with 4 samples.

Results

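Metallothioneins are small cysteine-rich proteins that bind zinc and copper. Mt1 and Mt2, which lie next to each other on chromosome 8, encode the forms found in most mouse tissues. Their genes are switched on by Mtf1, a transcription factor that senses free zinc and binds short promoter motifs called metal response elements. Slc30a1 (ZnT1), another gene under Mtf1, exports zinc from the cell, and Slc39a10 (ZIP10) imports it and is known for its role in blood cells. These 5 genes of the 32285 in the matrices were taken by their symbols, and each symbol matched 1 gene. The members were chosen by measured values, the known ratio of Mt1 and Mt2 between genotypes in these libraries together with the zinc genes around them, so all values are given as a description, with no test.

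The study asked how loss of Sin3B, a scaffold of a histone deacetylase corepressor complex, changes hematopoietic stem and progenitor cells. LSK cells (Lineage-negative, Sca-1+, c-Kit+) were sorted from bone marrow of C57BL/6 mice and counted by droplet 3′ RNA sequencing in 2 libraries. One was made at homeostasis, from male mice, and the other 9 days after a single intraperitoneal injection of 100 mg/kg 5-fluorouracil (5-FU), which kills dividing cells. The sources used here do not state the age of these mice. Each library held a pool of 2 Sin3B F/F mice without Cre, called wild type, and a pool of 2 Sin3b-/- mice, in which both floxed alleles were deleted by Vav1-iCre, active in all blood cells from mid gestation. Cells of the pools carried different hashtag antibodies, TotalSeq-B0096 for wild type and TotalSeq-B0157 for Sin3b-/-, and only cells assigned to 1 tag were used. With 1 pool per genotype and library, there is no replicate, and all intervals are 95% intervals that cover counting error only. Condition coincides with library, so an effect of 5-FU cannot be told apart from one of the library. Values of both libraries are given side by side, with no test between them.

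After filtering, 10329 wild-type and 4139 Sin3b-/- cells remained at homeostasis, with a median of 6990 and 6616 UMIs (counted RNA molecules) per cell and 84284046 and 32207216 UMIs in all. After 5-FU, 4884 and 3313 cells remained, with medians of 9303 and 10954 UMIs and totals of 52758288 and 43733031. Of the called cells, 26.3% at homeostasis and 25.8% after 5-FU had no assigned tag, and 6.02% and 3.40% carried both. The libraries shared 76 cell barcodes, 0.318% of the homeostasis cells and 0.596% of the 5-FU cells. Sin3b itself was at 81.8 CPM (UMIs of the gene per 1000000 UMIs of the pool) in wild-type and 23.2 in Sin3b-/- cells at homeostasis, and at 112.5 and 15.1 after 5-FU. It was lower under the Sin3b-/- tag in all 9 and all 12 clusters with at least 50 cells of each genotype. The sources used here do not state where the floxed exons lie relative to the 3′ reads, so this is a check of the labels and not of the deletion.

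Windows before the RefSeq starts of the members were searched for the core letters of metal response elements, and those that held a match are printed because Mtf1 is known to act through such elements. The 250 bases before the annotated start were taken from RefSeq (GRCm38.p6, while the submitters' notes name mm9), which listed a start for all 5 members. Both strands were searched for the cores TGCACNC and TGCGCNC, which differ in their middle base so that no site matches both, and matches are in capitals.
Mt1, chr8:94178839-94179088, plus strand: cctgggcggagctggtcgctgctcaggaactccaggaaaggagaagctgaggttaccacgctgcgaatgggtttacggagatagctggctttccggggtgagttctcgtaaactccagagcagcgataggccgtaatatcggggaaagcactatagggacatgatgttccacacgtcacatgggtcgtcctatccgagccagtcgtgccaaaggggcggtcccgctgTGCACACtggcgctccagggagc
Mt2, chr8:94172368-94172617, plus strand: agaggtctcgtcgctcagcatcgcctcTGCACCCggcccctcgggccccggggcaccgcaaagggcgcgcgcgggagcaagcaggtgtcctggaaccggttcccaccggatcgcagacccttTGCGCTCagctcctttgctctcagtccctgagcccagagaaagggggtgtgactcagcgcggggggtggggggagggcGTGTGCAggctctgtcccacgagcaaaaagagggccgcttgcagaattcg
Slc30a1, chr1:191906531-191906780, plus strand: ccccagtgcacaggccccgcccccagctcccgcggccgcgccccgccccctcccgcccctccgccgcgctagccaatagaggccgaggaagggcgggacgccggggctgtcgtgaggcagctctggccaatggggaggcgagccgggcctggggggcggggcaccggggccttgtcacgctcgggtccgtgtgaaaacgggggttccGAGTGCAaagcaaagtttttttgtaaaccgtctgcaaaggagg
Mt2 held 3 cores, which began 223, 128 and 50 bases before the start, the last of them on the opposite strand. Mt1 held 1 core at 23 bases and Slc30a1 held 1 at 43 bases, on the opposite strand. The Mtf1 window and both Slc39a10 windows held none. The RefSeq starts differ from the GENCODE gene models given below. The Mtf1 window and 1 Slc39a10 window lie inside the GENCODE gene, the other Slc39a10 window lies outside it, and the Mt1 and Slc30a1 windows run a few bases past the GENCODE start. A count of 0 therefore says nothing of the bases before the GENCODE starts. Each search stopped at the RefSeq start, so every count, also those of Mt1, Mt2 and Slc30a1, is that of the window and not of the whole promoter. Of 32851 such windows of all genes, 21.4% held at least 1 core, 5.17% at least 2 and 1.26% at least 3. A match is a description of the letters and not evidence of binding.

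In the GENCODE annotation of GRCm38, Mt2 (ENSMUSG00000031762) spans chr8:94172664-94173568 and Mt1 (ENSMUSG00000031765) spans chr8:94179082-94180327, both on the plus strand and 5.51 kb apart. Sin3b ends 21.4 Mb before Mt2 on the same chromosome. Mtf1 (ENSMUSG00000028890) lies on chromosome 4 at chr4:124802104-124849800, plus strand. Slc30a1 (ENSMUSG00000037434) is at chr1:191906767-191913247 on the plus strand, and Slc39a10 (ENSMUSG00000025986) is at chr1:46807544-46892852 on the minus strand. All are protein coding. Mt1 and Mt2 have similar coding sequences, and the sources used here do not say how reads matching both were counted.

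Mt1 and Mt2 were higher in the Sin3b-/- pool of both libraries, Mtf1 and Slc30a1 were higher by less, and Slc39a10 was lower. At homeostasis, Mt1 was at 19.5 CPM (interval 18.6 to 20.5, 1645 UMIs) in wild-type and 87.3 CPM (84.1 to 90.6, 2811 UMIs) in Sin3b-/- cells, 4.47-fold higher. Mt2 was at 2.05 CPM (173 UMIs) and 13.3 CPM (428 UMIs), 6.46-fold higher (log2 ratio 2.69, or 2.07 with cells matched by cluster). After 5-FU, Mt1 was at 31.9 CPM (1681 UMIs) in wild-type and 149.2 CPM (6527 UMIs) in Sin3b-/- cells, 4.68-fold higher. Mt2 was at 1.84 CPM (97 UMIs) and 26.2 CPM (1146 UMIs), 14.2-fold higher (log2 ratio 3.83, or 3.15 with tags called by a Gaussian mixture), so wild-type cells held very few Mt2 molecules in each library.

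Mtf1, the zinc sensor, was at 20.2 CPM (1700 UMIs) in wild-type and 34.2 CPM (1102 UMIs) in Sin3b-/- cells at homeostasis, 1.70-fold higher. After 5-FU it was at 21.2 CPM (1117 UMIs) and 33.8 CPM (1476 UMIs), 1.59-fold higher. The exporter Slc30a1 was scarce, at 3.20 CPM (270 UMIs) and 4.32 CPM (139 UMIs) at homeostasis and at 5.35 CPM (282 UMIs) and 7.93 CPM (347 UMIs) after 5-FU. Its log2 ratio of Sin3b-/- over wild type was 0.43 (0.12 to 0.73) and 0.57 (0.34 to 0.80). The importer Slc39a10 was at 44.7 CPM (3770 UMIs) in wild-type and 31.6 CPM (1019 UMIs) in Sin3b-/- cells at homeostasis, a log2 ratio of -0.50 (-0.60 to -0.40). After 5-FU it was at 33.9 CPM (1791 UMIs) and 22.5 CPM (982 UMIs), a log2 ratio of -0.60 (-0.71 to -0.48).

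**Figure D1:**
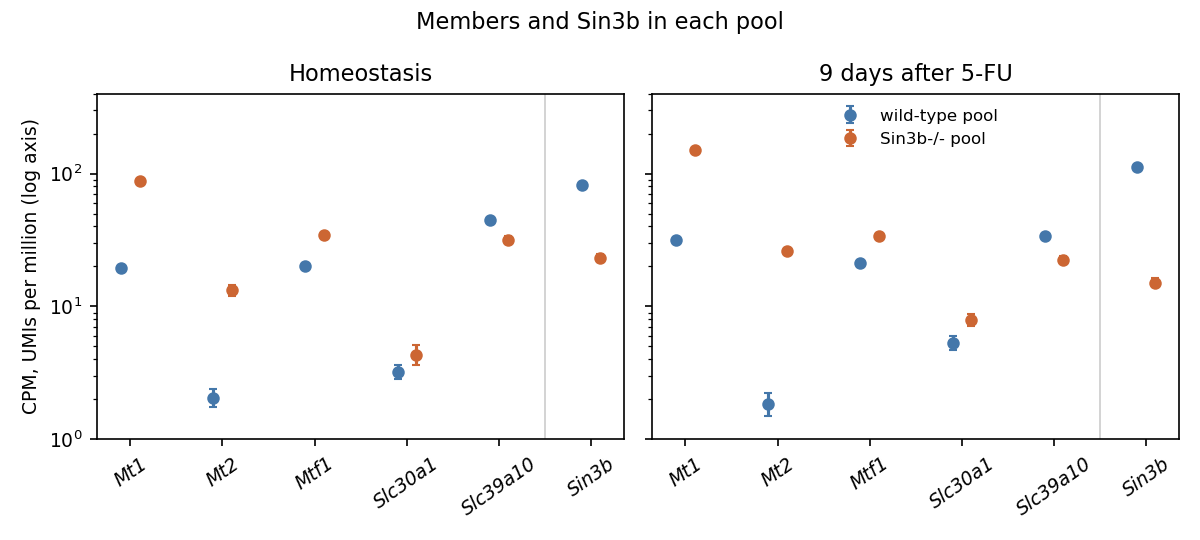
CPM of the 5 members and of Sin3b in the wild-type (blue) and Sin3b-/- (orange) pool of each library, on a log axis. Points are pool values and bars are 95% counting intervals. Mt1 and Mt2 sit higher in the Sin3b-/- pool of both libraries, from 19.5 to 87.3 and from 2.05 to 13.3 CPM at homeostasis, and Slc39a10 sits lower.

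As log2 ratios of Sin3b-/- over wild type, Mt1 was at 2.16 (2.07 to 2.25) and Mt2 at 2.69 (2.44 to 2.96) at homeostasis. After 5-FU they were at 2.23 (2.15 to 2.31) and 3.83 (3.53 to 4.15). At homeostasis 2 of the 5 members, Mt1 and Mt2, were at least 2-fold higher in Sin3b-/- cells, where 1.95% of the 15553 genes with at least 50 UMIs were, and 0 members were at least 2-fold lower, where 1.88% of genes were. After 5-FU the same 2 genes were at least 2-fold higher, where 1.25% of 13536 genes were, and 0 were at least 2-fold lower, where 1.64% were. The members were picked with this contrast known, so nothing is read from these counts. Ranked from the highest log2 ratio, Mt2 was gene 19 and Mt1 gene 39 at homeostasis, and Mt2 was gene 5 and Mt1 gene 17 after 5-FU. The median log2 ratio of all genes was 0.01 and -0.02, and 5% to 95% of genes spanned -0.59 to 0.63 and -0.58 to 0.49. Mtf1 lay above that range in both libraries, Slc30a1 above it after 5-FU, and Slc39a10 below it after 5-FU. The last 2 lay near the bound, and their intervals (0.34 to 0.80 and -0.71 to -0.48) held it. Some alternatives gave values inside the range. With cells matched by cluster, Mtf1 was at 0.59 at homeostasis and Slc39a10 at -0.46 after 5-FU. The mean of per-cell CPM gave 0.45 for Slc30a1 after 5-FU.

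The difference was found in most cell classes, and the levels differed between classes. Clusters were named from marker genes, with 6 to 8 of 9 markers of long-term hematopoietic stem cells (such as Procr, Mecom and Hlf) raised in the LT-HSC-like clusters at homeostasis and 6 to 9 after 5-FU. The other named classes were megakaryocyte-erythroid-like, neutrophil-monocyte-like and lymphoid-like. The neutrophil-monocyte-like class was 1 cluster of each library, and they were not led by the same genes. The homeostasis cluster was led by Ung, Ctsg and Uhrf1, while the 5-FU cluster (251 cells, 5 of 9 markers) was led by the histone genes Hist1h3c, Hist1h2ab and Hist1h2ap. Cluster 5 after 5-FU (620 cells), led by Ctsg, Ung and Uhrf1, stayed unnamed, and its Mt1 was at 49.6 CPM in wild-type and 188.4 CPM in Sin3b-/- cells. B cell-like cells, with 7 and 16 cells at homeostasis and 19 and 2 after 5-FU, were too few to describe. Clusters that matched no class held 49.7% of wild-type and 52.2% of Sin3b-/- cells at homeostasis, and 71.2% and 46.7% after 5-FU.

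Among wild-type cells at homeostasis, Mt1 was highest in megakaryocyte-erythroid-like cells at 39.1 CPM (33.3 to 45.6). It was at 24.3 CPM (22.0 to 26.8) in LT-HSC-like, 19.6 CPM (17.0 to 22.6) in neutrophil-monocyte-like and 18.9 CPM (17.6 to 20.2) in unnamed clusters, neighbours whose counting intervals overlapped. Lymphoid-like cells were lowest at 6.13 CPM (4.69 to 7.88). The Sin3b-/- cells followed nearly the same order at higher levels. Mt1 was at 224 CPM (205 to 244) in megakaryocyte-erythroid-like, 123 CPM (109 to 138) in neutrophil-monocyte-like, 109 CPM (103 to 116) in LT-HSC-like, 52.7 CPM (49.2 to 56.3) in unnamed and 20.9 CPM (11.7 to 34.4) in lymphoid-like cells. The log2 ratio lay between 1.48 in unnamed clusters and 2.64 in neutrophil-monocyte-like cells, and the interval lay above 0 in all 5 classes. In lymphoid-like cells it rested on 15 UMIs in 95 Sin3b-/- cells, and the shares of cells with Mt1 at equal depth, given below, overlapped there. Different clusters made up the unnamed group in the genotypes. Clusters 0 and 3 held 1752 and 1346 wild-type but 23 and 83 Sin3b-/- cells, while clusters 7 and 11 held 96 and 29 but 1065 and 551. Values of the unnamed group at homeostasis therefore do not compare like cells.

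After 5-FU, wild-type Mt1 was again highest in megakaryocyte-erythroid-like cells at 79.5 CPM (74.0 to 85.3). It was at 37.5 CPM (31.2 to 44.7) in LT-HSC-like and 36.3 CPM (29.8 to 43.9) in neutrophil-monocyte-like cells, which did not differ beyond counting error, at 18.7 CPM (17.3 to 20.2) in unnamed and at 2.29 CPM (0.277 to 8.27, 2 UMIs) in lymphoid-like cells. In Sin3b-/- cells Mt1 was at 219 CPM in megakaryocyte-erythroid-like, 162 CPM in LT-HSC-like, 139 CPM in neutrophil-monocyte-like, 106 CPM in unnamed and 21.4 CPM in lymphoid-like cells. The log2 ratio was smallest in megakaryocyte-erythroid-like cells, at 1.46 (1.35 to 1.58), where the wild-type level was highest. That class held unlike clusters. Mt1 was at 70.4 and 248 CPM in cluster 3 (log2 ratio 1.81) and at 95.2 and 177 CPM in cluster 7 (0.89), which was led by the histone genes Hist1h3c, Hist1h1b and Hist1h2ap.

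In Sin3b-/- cells at homeostasis, Mt2 was concentrated in 2 classes. It was at 57.3 CPM (47.9 to 68.0) in megakaryocyte-erythroid-like and 23.1 CPM (20.2 to 26.2) in LT-HSC-like cells, against 5.31 CPM (3.33 to 8.05) and 2.79 CPM (2.05 to 3.71) in the wild-type cells of those classes. In neutrophil-monocyte-like cells it was at 2.96 CPM (7 UMIs) against 0.607 CPM (6 UMIs), and in unnamed clusters at 3.28 against 1.94 CPM. Neutrophil-monocyte-like Sin3b-/- cells therefore had Mt1 at or above the LT-HSC-like level and Mt2 well below it. No Mt2 UMI was found in the 95 lymphoid-like Sin3b-/- cells, where the interval reached 5.14 CPM, above the 1.41 CPM of the wild-type cells, so no difference was detectable at this depth. After 5-FU Mt2 was at 47.6 CPM in megakaryocyte-erythroid-like, 37.1 CPM in LT-HSC-like, 11.4 CPM in unnamed, 9.60 CPM in neutrophil-monocyte-like and 4.94 CPM (3 UMIs) in lymphoid-like Sin3b-/- cells. The wild-type levels of these classes lay between 0.679 and 5.31 CPM.

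At homeostasis Mtf1 spanned 16.8 to 21.4 CPM over the classes of wild-type cells and 29.2 to 38.4 CPM over those of Sin3b-/- cells, with log2 ratios of 0.59 to 0.96. After 5-FU it spanned 17.3 to 23.1 and 28.0 to 36.3 CPM, with log2 ratios of 0.54 to 1.06. Single clusters spanned more, and Sin3b-/- cells after 5-FU had Mtf1 at 22.6 CPM (17.0 to 29.5) in the unnamed cluster 4 and 31.9 CPM (27.6 to 36.7) in LT-HSC-like cluster 2, while the interval in LT-HSC-like cluster 8 was 40.5 to 61.1 CPM. The interval lay above 0 in 4 of 5 classes of each library and held 0 in lymphoid-like cells. Slc39a10 was lower in Sin3b-/- cells in all 5 classes of each library, with the interval below 0 in 4 at homeostasis and 3 after 5-FU. Its wild-type levels spanned 42.7 to 49.5 CPM at homeostasis and its Sin3b-/- levels 26.2 to 32.5 CPM. After 5-FU its log2 ratio was -0.77 (-1.02 to -0.52) in megakaryocyte-erythroid-like and -0.17 (-0.53 to 0.20) in LT-HSC-like cells, where the interval held 0. Slc30a1 intervals held 0 in all 5 classes at homeostasis and lay above 0 in 2 of 5 after 5-FU, the megakaryocyte-erythroid-like cells (log2 ratio 0.50) and the unnamed clusters (0.51).

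Within the LT-HSC-like cells, the stem cell class the study asked about, Mt1 had a log2 ratio of 2.17 (2.01 to 2.34) and Mt2 of 3.04 (2.59 to 3.53) at homeostasis, and of 2.11 (1.85 to 2.39) and 3.31 (2.54 to 4.34) after 5-FU. The Mt2 ratio moved with how the class was drawn, to 3.72 at homeostasis with Leiden resolution 2, and after 5-FU to 3.94 with the LT-HSC signature, 4.05 with resolution 0.5 and 4.16 with resolution 2. Different clusters held most of that class in the genotypes at homeostasis. Cluster 2 held 1433 of the 2229 wild-type cells and 33 Sin3b-/- cells, while cluster 5 held 670 and 699 and cluster 8 held 126 and 676. The class ratio of Mt1 at homeostasis was above that of each of these clusters. In cluster 2, Mt1 was at 12.1 CPM in wild-type and 36.4 CPM (10 UMIs) in Sin3b-/- cells (log2 ratio 1.65). In cluster 5, where the genotypes were balanced, Mt1 was at 48.5 CPM in wild-type and 186.4 CPM in Sin3b-/- cells (log2 ratio 1.94, 1.72 to 2.17), and Mt2 was at 4.93 and 46.7 CPM. In cluster 8, Mt1 was at 52.8 and 53.4 CPM (0.01, -0.35 to 0.40) and Mt2 at 7.75 and 5.88 CPM, so neither gene differed beyond counting error between the tags there. The 126 wild-type-tagged cells of cluster 8 had a median of 11168 UMIs, against 7394.5 in its Sin3b-/- cells and 11433 in cells with both tags. Sin3b in these wild-type-tagged cells was at 54.3 CPM, against 81.8 CPM in all wild-type-tagged cells. Whether they held RNA of both genotypes was not tested. After 5-FU both LT-HSC-like clusters showed the difference. Mt1 was at 29.0 and 156.9 CPM in cluster 2, with 256 and 767 cells, and at 46.3 and 179.0 CPM in cluster 8, which was led by Neo1, Nr4a1 and Gem.

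Over all clusters with at least 50 cells of each genotype, Mt1 was higher in Sin3b-/- cells in 9 of 9 clusters at homeostasis, with 7 intervals above 0, and in 12 of 12 after 5-FU, with 11. Mt2 was higher in 5 of 9, with 4 intervals above 0, and in 11 of 12, with 8. The Mt1 intervals that held 0 were those of clusters 8 and 10 at homeostasis and cluster 11 after 5-FU. In cluster 10 at homeostasis, an unnamed cluster led by Gm49164, Ebf1 and Mpo, 579 wild-type cells had Mt1 at 67.0 CPM, the highest wild-type level of that library, and 55 Sin3b-/- cells had 75 CPM. Cluster 11 after 5-FU was shallow, with a median of 1803.5 UMIs and 4 and 9 Mt1 UMIs. The wild-type-tagged cells of clusters 8 and 10 had Sin3b at 54.3 and 61.3 CPM, under the 81.8 CPM of all wild-type-tagged cells, and cluster 8 was mostly Sin3b-/- cells. In the unnamed cluster 7, with 96 wild-type and 1065 Sin3b-/- cells, Sin3b was at 60.7 CPM under the wild-type tag and the Mt1 log2 ratio was 0.85 (0.25 to 1.57). Median depth in cluster 7 was 11105 UMIs under the wild-type tag and 6535 under the Sin3b-/- tag. The part of these values in the result was not tested. Mtf1 was higher in 9 of 9 clusters at homeostasis, with 4 intervals above 0, and in 10 of 12 after 5-FU, with 9. Slc39a10 was lower in 9 of 9, with 5 intervals below 0, and in 11 of 12, with 6. Slc30a1 was higher in 6 of 9, with 0 intervals above 0, and in 9 of 12, with 2.

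**Figure D2:**
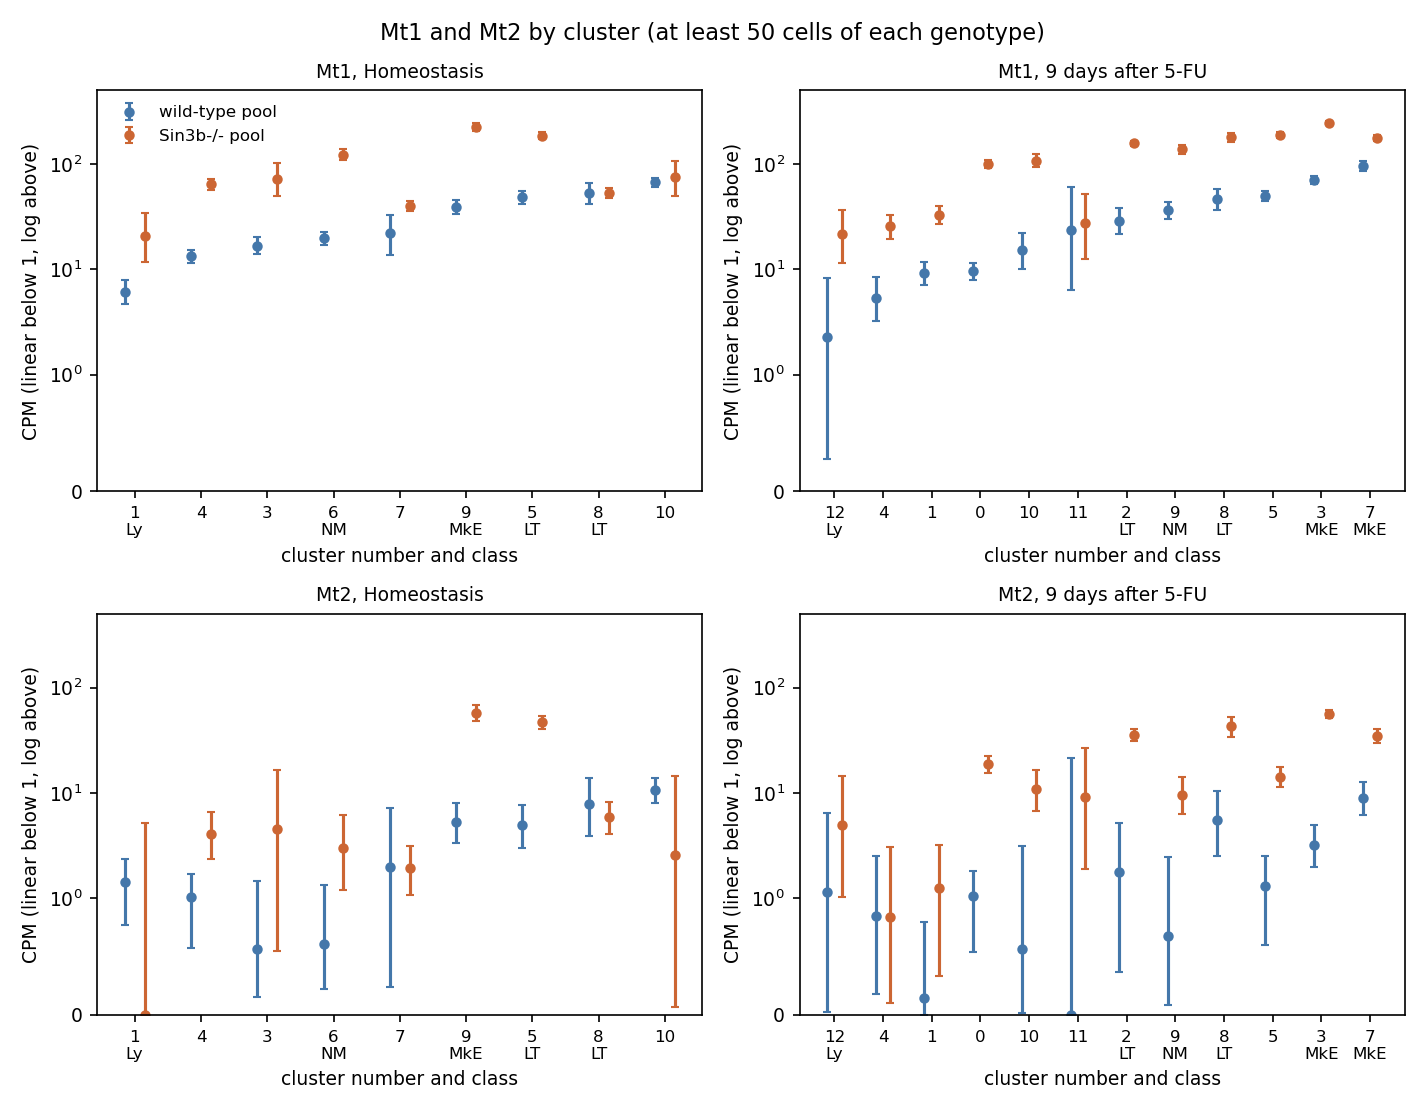
Mt1 (top) and Mt2 (bottom) CPM in wild-type (blue) and Sin3b-/- (orange) cells of each cluster with at least 50 cells of each genotype, ordered by wild-type Mt1. The axis is linear below 1 and log above, bars are 95% counting intervals, and letters under the cluster number give the class (LT for LT-HSC-like, MkE for megakaryocyte-erythroid-like, NM for neutrophil-monocyte-like and Ly for lymphoid-like). The pools coincide in clusters 8 and 10 at homeostasis and differ in all but cluster 11 after 5-FU for Mt1.

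Classes assigned from published signatures of LT-HSC, ST-HSC, MPP2, MPP3 and MPP4 cells gave the same direction. Mt1 was higher in Sin3b-/- cells in 5 of 5 signature classes of each library, with log2 ratios of 1.55 to 2.17 at homeostasis and 1.57 to 2.65 after 5-FU. At homeostasis Mt2 was at 24.2 CPM in Sin3b-/- cells of the LT-HSC signature and at 1.99 CPM in those of the ST-HSC signature, against 2.33 and 1.45 CPM in wild-type cells. The Mt2 ratio thus ran from 0.51 (-0.83 to 1.61) in ST-HSC to 3.36 (2.82 to 3.99) in LT-HSC cells. After 5-FU it lay between 3.08 and 3.99 in all 5. Slc39a10 intervals lay below 0 in 5 of 5 signature classes of each library, with LT-HSC cells after 5-FU at -0.38 (-0.67 to -0.10). Slc30a1 intervals lay above 0 in 1 of 5 at homeostasis, the MPP3 cells, and in 3 of 5 after 5-FU, with LT-HSC cells at 0.93 (0.38 to 1.54). Where these 2 genes differed beyond counting error thus moved with how the classes were drawn. Split by quartiles of UMIs per cell, Mt1 was higher in Sin3b-/- cells in 4 of 4 quartiles of each library, with the smallest ratio in the deepest quartile (1.94 and 1.78).

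Each cell was thinned to 4000 UMIs to put genotypes on 1 depth, which left out 4.70% of wild-type and 5.53% of Sin3b-/- cells at homeostasis and 10.5% and 5.07% after 5-FU. An Mt1 UMI was then found in 6.39% (5.91 to 6.89) of wild-type and 22.2% (20.9 to 23.5) of Sin3b-/- cells at homeostasis. After 5-FU the shares were 8.38% (7.57 to 9.24) and 32.1% (30.5 to 33.8). Without thinning the shares were 11.4% and 32.4%, and 16.7% and 51.5%. Mt2 was found in 0.650% and 3.71% at homeostasis, then in 0.618% and 8.27%. The unthinned shares were 1.24% and 5.56%, and 1.39% and 17.0%. Mtf1 shares were 7.42% and 13.1%, then 8.51% and 12.1%, while Slc39a10 shares were 16.5% and 11.6%, then 11.6% and 7.92%. Slc30a1 was found in 1.35% (1.13 to 1.60) and 1.69% (1.31 to 2.14) at homeostasis, which overlapped, then in 1.92% (1.54 to 2.37) and 3.34% (2.74 to 4.03). Thinned to 2000 UMIs, its shares after 5-FU were 1.40% (1.09 to 1.78) and 1.52% (1.12 to 2.00), which overlapped, and those at homeostasis were 0.513% (0.385 to 0.671) and 0.942% (0.671 to 1.29), so no difference in Slc30a1 shares is read from either library.

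By class, the share of cells with Mt1 after thinning was largest in megakaryocyte-erythroid-like cells, at 10.5% of wild-type and 41.0% of Sin3b-/- cells at homeostasis and 20.1% and 50.2% after 5-FU. LT-HSC-like cells had 7.09% and 29.0%, then 14.1% and 37.3%. Mt2 was found in 0.814% of wild-type and 7.47% of Sin3b-/- LT-HSC-like cells at homeostasis, then in 1.24% and 11.8%. The lowest shares of Mt1 were in lymphoid-like cells. At homeostasis they were 2.70% of 1369 wild-type cells (37 cells, interval 1.91 to 3.71) and 3.23% of 93 Sin3b-/- cells (3 cells, 0.67 to 9.14). These intervals overlapped, and the median depths were 6323.5 and 6911 UMIs over all cells of the class. After 5-FU the shares were 2.25% of 89 wild-type cells (2 cells) and 9.26% of 54 Sin3b-/- cells (5 cells, interval 3.08 to 20.3). Median depths were then 8152 and 9418 UMIs over all cells of the class. The LT-HSC-like cells had medians of 6379 and 6432 UMIs at homeostasis and 7077 and 7910 after 5-FU.

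**Figure D3:**
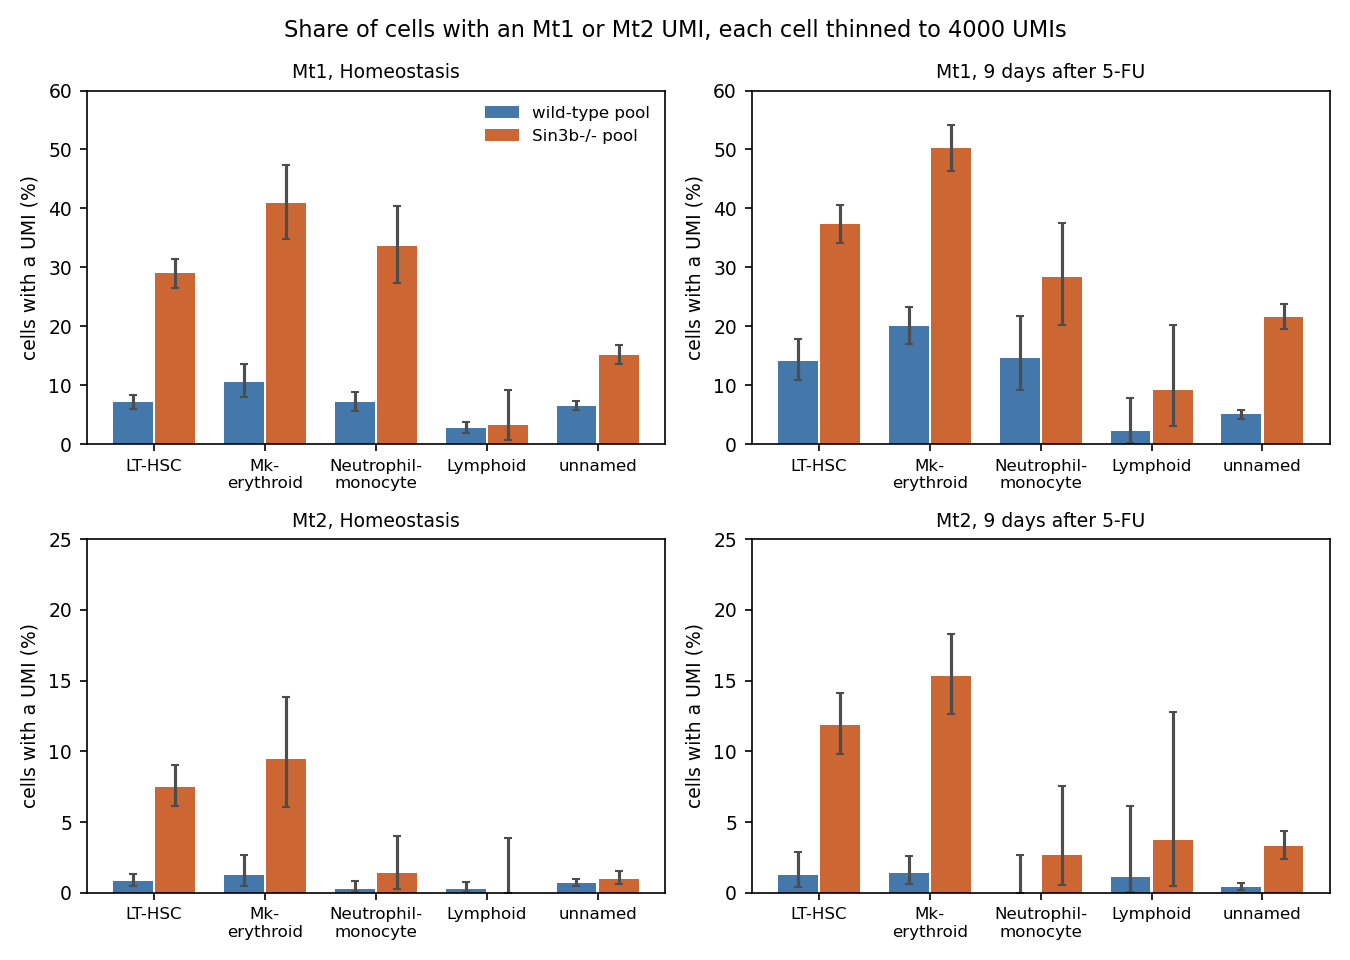
Percent of cells with at least 1 Mt1 (top) or Mt2 (bottom) UMI by class and genotype, each cell thinned to 4000 UMIs, with exact 95% intervals. Megakaryocyte-erythroid-like and LT-HSC-like Sin3b-/- cells had the largest Mt2 shares in both libraries, and lymphoid-like cells had the lowest Mt1 shares.

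Free RNA could be estimated at homeostasis, where barcodes without a cell were also listed. In 67715 barcodes of 100 to 299 UMIs, Mt1 made up 101.4 CPM and Mt2 15.1 CPM, and 1.45% and 0.216% of these barcodes had a UMI of them. Their median of 138 UMIs is 1.97% of a median wild-type and 2.09% of a median Sin3b-/- cell. The Mt1 level of this band (interval 95.2 to 107.9) was above that of both pools of cells. If each cell took up 1 such droplet, this RNA would add 2.00 and 2.12 CPM of Mt1 to wild-type and Sin3b-/- cells. It would add 0.298 and 0.315 CPM of Mt2. The Sin3b-/- cells had 87.3 CPM of Mt1 and 13.3 CPM of Mt2. The wild-type cells had 19.5 CPM of Mt1 and 2.05 CPM of Mt2, so the added part is larger there. It is not small beside the 6.13 CPM of Mt1 in wild-type lymphoid-like cells or the 0.607 CPM of Mt2 in wild-type neutrophil-monocyte-like cells. The 5-FU matrix listed called cells only, so no such estimate was made there. The band of 100 to 299 UMIs was chosen after the data were seen, and the part of free RNA in the difference between the pools was not tested.

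Single cells differed in how many Mt1 molecules they held. At 4000 UMIs, 15.1% of Sin3b-/- cells at homeostasis had 1 Mt1 UMI, 4.55% had 2 and 2.56% had 3 or more, up to 9. Of wild-type cells, 5.63% had 1, 0.670% had 2 and 0.0914% had 3 or more. After 5-FU, 19.3%, 7.41% and 5.41% of Sin3b-/- cells and 6.82%, 1.08% and 0.481% of wild-type cells had 1, 2 and 3 or more. The variance of Mt1 over its mean was 1.28 in wild-type and 1.80 in Sin3b-/- cells at homeostasis and 1.5 and 1.88 after 5-FU, over the mixture of all classes.

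Mt1 and Mt2 tended to be detected in the same cells, all at equal depth. Of Sin3b-/- cells at homeostasis, 11.6% (9.59 to 14.0) of those with Mt1 had an Mt2 UMI, against 1.45% (1.05 to 1.94) of those without. In wild-type cells the shares were 3.02% and 0.488%. After 5-FU they were 18.9% and 3.23% in Sin3b-/- cells and 3.28% and 0.375% in wild-type cells. The cells of a library share their source, and classes were not held apart in this comparison.

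Across clusters, Mt1 and Mt2 levels had a Pearson correlation of log2(CPM + 1) of 0.80 and 0.60 over 13 clusters of wild-type cells, at homeostasis and after 5-FU, and of 0.88 and 0.84 over 10 and 12 clusters of Sin3b-/- cells. By the lowest of these 4 correlations with Mt1 plus Mt2, the most similar of 5951 genes were Tgfbr3 (0.76), Apoe (0.70), Nadk2 (0.69), Pdlim1 (0.69) and Rab11a (0.67). Tgfbr3 encodes a co-receptor of transforming growth factor beta and Apoe a lipid carrier. For Mtf1 the 4 correlations, in the order wild type and Sin3b-/- at homeostasis and then after 5-FU, were 0.26, 0.31, -0.15 and 0.61. For Slc30a1 they were 0.39, 0.73, 0.06 and 0.10, and for Slc39a10 0.17, -0.24, -0.15 and -0.38. Clusters of a library share depth and cell sources, and these correlations are a description only.

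The hashtag assignment touches every value above, and untagged cells were examined for it. Mt1 was at 49.2 CPM in cells with both tags at homeostasis and 80.4 CPM after 5-FU, between the wild-type and Sin3b-/- values. Cells without a tag had Mt1 at 76.0 and 92.9 CPM and Sin3b at 28.8 and 21.4 CPM, nearer by ratio to the Sin3b-/- than to the wild-type pool. Their Mt2 was at 9.46 CPM at homeostasis, also nearer to the Sin3b-/- pool. After 5-FU it was at 12.4 CPM, between the 1.84 CPM of the wild-type pool and the 26.2 CPM of the Sin3b-/- pool. Which of these it was nearer to depends on the scale, the wild-type pool by difference in CPM and the Sin3b-/- pool by ratio. When wild-type-tagged cells at homeostasis were split by the share of their hashtag UMIs on the assigned tag, the lowest tertile had Mt1 at 30.3 CPM and Sin3b at 72.4 CPM. The middle and highest tertile had Mt1 at 14.4 and 14.8 CPM and Sin3b at 86.9 and 85.4 CPM. In the Sin3b-/- pool at homeostasis the tertiles had Mt1 at 92.4, 85.0 and 85.5 CPM. After 5-FU they had 34.2, 28.8 and 32.6 CPM under the wild-type tag and 122.8, 154.2 and 164.6 CPM under the Sin3b-/- tag. The wild-type level at homeostasis was thus lower in cells of stronger tag share. With at least 80% of hashtag UMIs required on 1 tag, the log2 ratio at homeostasis was 2.45 for Mt1 and 3.21 for Mt2, and with a Gaussian mixture of the tag ratio the Mt2 ratio after 5-FU was 3.15. Within the Sin3b-/- pool, Mt1 was found in 19.6% (15.4 to 24.3) of cells with a Sin3b UMI and 22.4% (21.1 to 23.8) of those without at homeostasis, and in 27.6% and 32.5% after 5-FU, with overlapping intervals in each library.

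**Figure D4:**
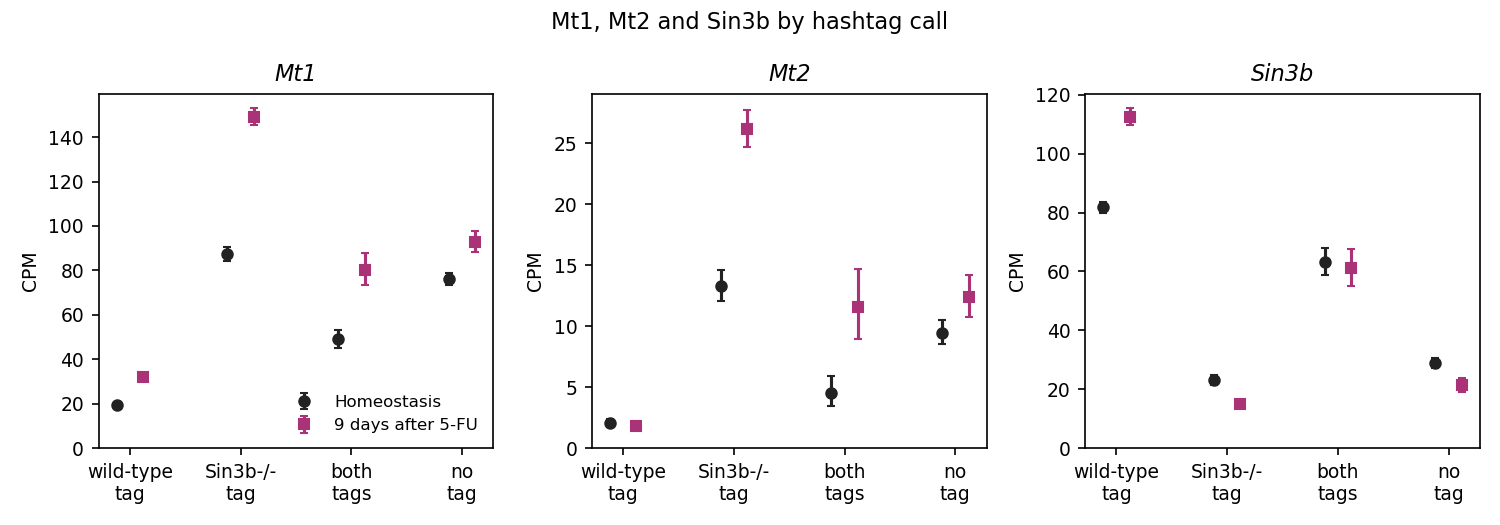
CPM of Mt1, Mt2 and Sin3b by hashtag call at homeostasis (black) and 9 days after 5-FU (purple), with 95% counting intervals on axes from 0. Cells without a tag had Mt1 at 76.0 and 92.9 CPM and Sin3b at 28.8 and 21.4 CPM, nearer by ratio to the Sin3b-/- tag than to the wild-type tag. Their Mt2 after 5-FU, at 12.4 CPM, lay between the tags, nearer to the wild-type tag by difference in CPM and to the Sin3b-/- tag by ratio.

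Markers of mature neutrophils, a cell type outside the LSK gate, also differed between the pools at homeostasis. Their sum was 11.1 CPM in wild-type and 52.1 CPM in Sin3b-/- cells, with 6 of 6 markers higher, among them S100a8 at 5.24 and 32.7 CPM. After 5-FU the sum was 5.69 and 4.46 CPM, with 2 of 6 higher. Mt1 and Mt2 had log2 ratios of 2.15 and 2.68 at homeostasis when cells with any UMI of these markers were left out. Megakaryocyte-erythroid markers, the list of the class with the highest Mt1, summed to 159 and 301 CPM at homeostasis and to 518 and 846 CPM after 5-FU, and LT-HSC markers to 1669 and 2110 CPM and to 905 and 994 CPM. Other lists also differed between the pools. Lymphoid markers summed to 917 CPM in wild-type and 637 CPM in Sin3b-/- cells at homeostasis and to 288 and 158 CPM after 5-FU, with 0 of 9 higher in each library. B cell markers summed to 43.0 and 73.9 CPM (6 of 7 higher) and to 62.0 and 33.0 CPM (0 of 7). Basophil or mast cell markers summed to 35.9 and 21.9 CPM (0 of 6 higher) and to 42.2 and 25.9 CPM (0 of 6, with Prss34 at 0), and erythrocyte markers to 50.9 and 52.6 CPM (2 of 6) and to 59.5 and 93.2 CPM (4 of 6). Cycling markers summed to 694 and 536 CPM at homeostasis (0 of 7 higher) and to 703 and 846 CPM after 5-FU (7 of 7). Neutrophil-monocyte markers summed to 620 and 510 CPM (4 of 9 higher) and to 845 and 612 CPM (2 of 9), and T or NK cell markers to 109 and 77.8 CPM (4 of 6) and to 175 and 109 CPM (0 of 6), with Cd3e at 0 in each library. The part of these lists in the result was not tested. Lymphoid-like cells, the class with the lowest Mt1, were 13.8% of wild-type and 2.30% of Sin3b-/- cells at homeostasis and 2.03% and 1.72% after 5-FU, and LT-HSC-like cells were 21.6% and 34.0%, then 9.58% and 28.3%. With cells matched by cluster, so that both genotypes had the same cluster makeup, the log2 ratio at homeostasis was 1.73 for Mt1 and 2.07 for Mt2. After 5-FU it was 2.01 for Mt1. At homeostasis the matching used 9 clusters with 71.4% of kept cells, and clusters 0, 2 and 11 were among those left out. It included clusters 7 and 8, whose 96 and 126 wild-type-tagged cells had Sin3b at 60.7 and 54.3 CPM. How far these cells moved the matched ratios was not tested.

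The other genes of zinc handling are given by list, beside the 1.95% of all genes at least 2-fold higher and 1.88% at least 2-fold lower at homeostasis and the 1.25% and 1.64% after 5-FU. Against these shares, a count of 0 in a short list is no result about the list. The metallothionein Mt3 had 11 wild-type and 15 Sin3b-/- UMIs at homeostasis, or 0.131 and 0.466 CPM (log2 ratio 1.82, 0.61 to 3.10), and 13 and 13 UMIs after 5-FU, or 0.246 and 0.297 CPM (log2 ratio 0.27, with an interval that held 0). Mt4 had at most 1 UMI, and both were under the limit of 50 UMIs. Of 9 further zinc exporters and vesicular transporters of the Slc30 family, 5 had at least 50 UMIs, and 0 of these were past 2-fold in either library, with a median log2 ratio of 0.04 at homeostasis and -0.10 after 5-FU. Their largest ratio was 0.12 for Slc30a6 at homeostasis and -0.26 for Slc30a4 after 5-FU. Of 13 further zinc importers of the Slc39 family, 10 were measured and 0 were past 2-fold. Their medians were -0.10 and -0.08, and 3 of 10 were higher in Sin3b-/- cells in each library, where 51.4% and 46.0% of all genes were. Nothing particular to the list is read from this count. Slc39a8 was at 11.8 CPM in wild-type and 8.07 CPM in Sin3b-/- cells at homeostasis (log2 ratio -0.54), and Slc39a6, the closest relative of Slc39a10, was at 34.2 and 26.3 CPM after 5-FU (-0.38). The importer Slc39a7, which releases zinc from internal stores, was at 32.3 and 38.7 CPM after 5-FU (0.26), the largest ratio in the other direction in that library. At homeostasis the largest in that direction was Slc39a13, at 13.7 and 17.2 CPM (0.33), and both were named after their values were seen.

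Of the 10 genes nearest to Mt1 and Mt2 on chromosome 8, 5 were measured, with median log2 ratios of -0.07 and 0.04 beside 0.01 and -0.02 over all genes. As few genes of any kind were past 2-fold, nothing is read from the 0 of 5 that were. The largest ratios were 0.42 for Bbs2 at homeostasis and 0.29 for Nup93 after 5-FU.

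**Figure D5:**
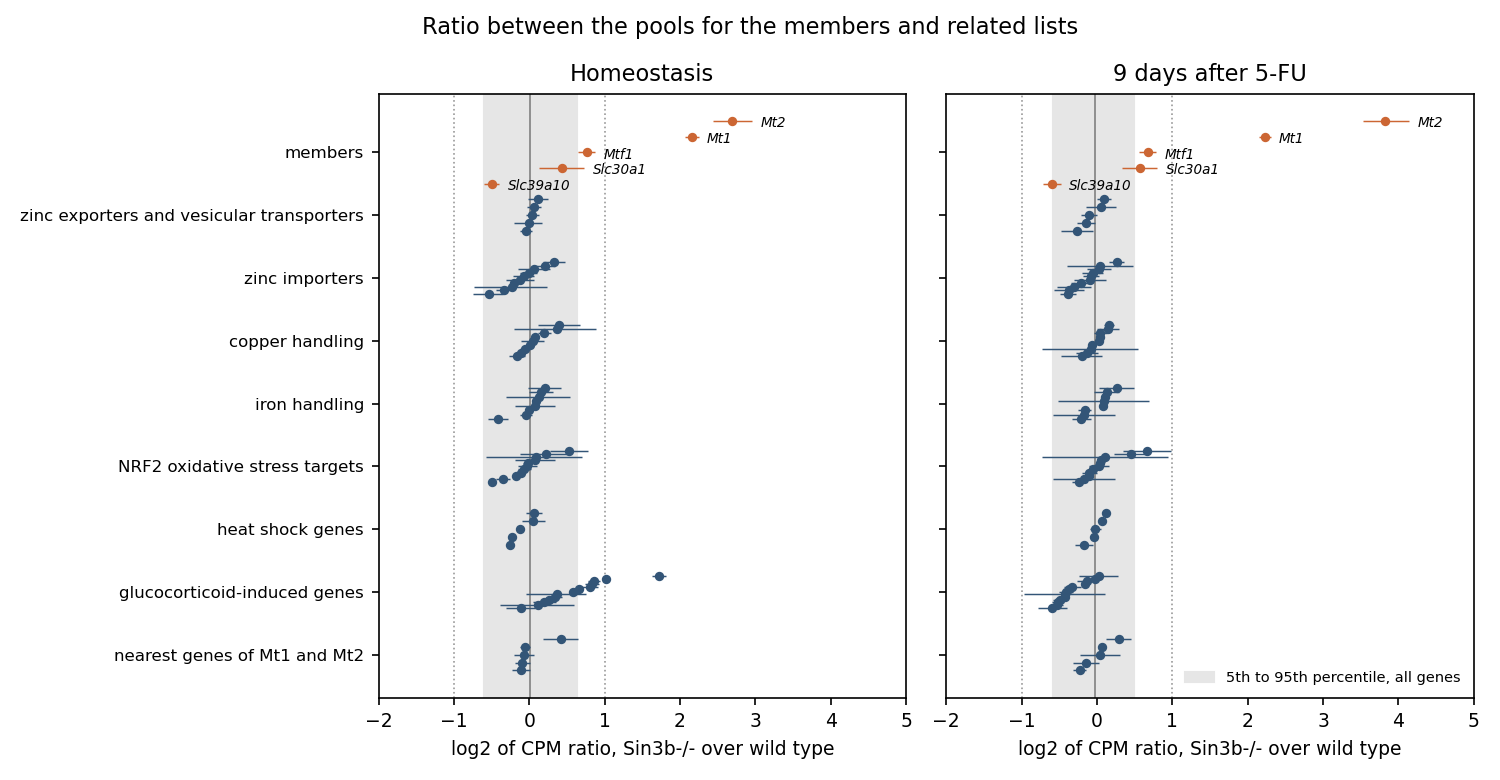
Log2 of the CPM ratio of Sin3b-/- over wild-type cells for the 5 members (orange) and for each measured gene of related lists (blue), with 95% counting intervals. The grey band spans 5% to 95% of all genes, the grey line is their median and dotted lines mark 2-fold. The Mt1 ratio is 2.16 in the homeostasis library and 2.23 in the 5-FU library, and the Mt2 ratio is 2.69 and 3.83. Both genes were picked with this contrast known. Genes of the zinc transporter lists lie within 2-fold, but few genes of any kind lie past it. The shares of all genes are 1.95% up and 1.88% down in the homeostasis library, and 1.25% and 1.64% in the other. Nothing is therefore read from the gap between Mt1 or Mt2 and these lists.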

How the data were processed

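UMI counts per gene, hashtag and barcode were made and deposited by the authors as matrices of both genotypes together, per the file headers with Cell Ranger 4 (homeostasis, all barcodes) and 6.0.1 (5-FU, called cells). The submitters' processing notes name mm9, Seurat and DESeq2, and the sources used here state no aligner settings. Row names came from the 5-FU features for both matrices. At homeostasis, barcodes of at least 2921 UMIs (10% of the 99th percentile of the 10000 largest) were called cells. Hashtags were assigned with HTODemux (Seurat 5.3.0, R 4.3.3, quantile 0.99). The outer 2% at each end of UMIs, genes and mitochondrial share in a library were trimmed, as were cells with at least 2 UMIs from a set of 9 lineage genes. Doublets were removed only where a cell carried both tags, so doublets within a genotype remain.

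Clusters were made with scanpy 1.11.5 (2000 variable genes without the members and lists, 30 components, 20 neighbours, Leiden resolution 1). They were named where at least 3 markers, and most of the list, were raised 1.5-fold in no smaller share of cells than elsewhere. Ties stayed unnamed, as did clusters whose leading genes held at least as many markers of another list. Cycling and class II lists were set aside as names after the clusters were seen. CPM are summed UMIs per 1000000, with exact Poisson intervals. Log2 ratios are of CPM with 0.5 counts added, with conditional binomial intervals, and shares have Clopper-Pearson intervals. Depth was between 32207216 and 84284046 UMIs per pool. TMM factors were from edgeR 4.0.16. Nothing was tested, since each genotype was 1 pool per library. All members were named, and of each related list the gene with the largest ratio per library and any gene past 2-fold in both libraries. The members and lists were chosen with earlier results of these data known. Alternatives covered the tag rule, filters, scaling, thinning, cluster resolution and low-count limits. The alternatives with hashtags normalized within each cell, without Sin3b-/- cells holding a Sin3b UMI and without cells holding a mature neutrophil marker were added after seeing the data.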

Additional observations from a re-analysis of the deposited data

Results flagged for a closer look

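Cells without an assigned tag were in no comparison and had more metallothionein RNA than the wild-type pool. Mt1 was at 76.0 CPM and Mt2 at 9.46 CPM in the untagged cells at homeostasis, against 19.5 and 2.05 CPM in wild-type-tagged cells. After 5-FU the untagged cells had Mt1 at 92.9 CPM and Mt2 at 12.4 CPM, against 31.9 and 1.84 CPM. Their genotype is not known from the tags. After 5-FU the called untagged cells, before filtering, had medians of 4162.5 UMIs and 4.52% mitochondrial share. The kept wild-type and Sin3b-/- cells had 9303 and 10954 UMIs and 3.24% and 3.37%. At homeostasis the untagged cells had 5918 UMIs and 2.37%, against 6990 and 6616 UMIs and 2.12% and 2.38%. The part of depth and quality in these levels was not tested.

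At homeostasis, 55725 barcodes of 10 to 99 UMIs, with a median of 18, had Mt1 at 576 CPM and Mt2 at 276 CPM, above the level in cells. The same barcodes had the keratin Krt14 at 1878 CPM, against 0.119 and 0.248 CPM in kept wild-type and Sin3b-/- cells. In barcodes of 100 to 299 UMIs, Mt1 was at 101.4 CPM and Krt14 at 10.5 CPM. The sparsest barcodes thus held RNA that the kept cells nearly lacked, and they were not used to estimate free RNA. The barcodes of 100 to 299 UMIs, which were used, also had Krt14 above its level in kept cells, though less of it.

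Glucocorticoid-induced genes, listed because glucocorticoids also induce metallothioneins, had ratios of opposite sign in the libraries. Their median log2 ratio of Sin3b-/- over wild type was 0.58 at homeostasis, with 12 of 13 genes higher, and -0.41 after 5-FU, with 1 of 13 higher, where 51.4% and 46.0% of all genes were higher and the median of all genes was 0.01 and -0.02. The difference between the libraries was not tested. Mt1 and Mt2 were higher in Sin3b-/- cells in both libraries, and the part of glucocorticoids in this was not tested.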

How the results depend on the processing

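Every member kept its direction in 14 of 14 alternatives at homeostasis and 13 of 13 after 5-FU, and of 135 alternative log2 ratios of the pools 121 moved by less than their counting interval. Slc30a1 ranged from 0.29 to 0.56 and from 0.45 to 0.60. With at least 80% of hashtag UMIs on 1 tag, the homeostasis ratio was 2.45 for Mt1, 3.21 for Mt2 and -0.38 for Slc39a10. With a Gaussian mixture it was 1.86 for Mt1, 2.30 for Mt2 and 0.61 for Mtf1, and after 5-FU 1.96 for Mt1 and 3.15 for Mt2. With cells matched by cluster (71.4% and 92.9% of kept cells) it was 1.73, 2.07 and 0.59 for Mt1, Mt2 and Mtf1 at homeostasis, and 2.01 for Mt1 and -0.46 for Slc39a10 after 5-FU. The mean of per-cell CPM gave 2.43 for Mt1 after 5-FU. For LT-HSC-like cells, taking the signature class gave 1.89 for Mt1 at homeostasis, Leiden resolution 0.5 gave 1.73 and 2.62 for Mt1 at homeostasis and after 5-FU, and resolution 2 gave 2.37 and 2.56, with 3.72 for Mt2 at homeostasis. Levels in the LT-HSC signature class were 32.3 CPM for wild-type and 119 CPM for Sin3b-/- Mt1 at homeostasis, and 177 and 44.3 CPM for Sin3b-/- Mt1 and Mt2 after 5-FU. The cause of these shifts was not tested.

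Counts of genes past 2-fold were larger with lower count limits, from 304 higher and 292 lower at homeostasis to 759 and 736 with at least 10 UMIs and 2332 and 1439 with no filter, and from 169 and 222 after 5-FU to 387 and 579, then 1781 and 2294. Shares depend on depth. Without thinning, wild-type and Sin3b-/- shares at homeostasis were 11.4% and 32.4% for Mt1, 1.24% and 5.56% for Mt2, 14.6% and 22.1% for Mtf1, 2.51% and 3.26% for Slc30a1, and 28.4% and 20.4% for Slc39a10. After 5-FU they were 16.7% and 51.5%, 1.39% and 17.0%, 19.6% and 32.6%, 5.38% and 9.57%, and 26.4% and 21.7%, in the same gene order. Thinned to 2000 UMIs, the homeostasis shares were 3.19% and 13%, 0.339% and 2.20%, 3.67% and 6.33%, 0.513% and 0.942%, and 8.62% and 6.23%, and the 5-FU shares were 4.01% and 18.4%, 0.252% and 4.67%, 4.49% and 6.84%, 1.40% and 1.52%, and 6.44% and 4.49%.

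No paired analysis was possible because each genotype was 1 pool per library and carried no replicate number, and no replicate was left out for that reason. Counting intervals do not cover differences between mice, so the spread between animals is unknown. Low UMI counts limit Slc30a1 and Mt2 in wild-type and lymphoid-like cells.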

Other observations

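Lists that respond to other metals or to stress were measured in the same pools. All 9 copper genes were measured, with median log2 ratios of Sin3b-/- over wild type of 0.05 at homeostasis and 0.02 after 5-FU, and the largest was Slc31a2, at 0.40 and -0.20. The 8 iron genes had medians of 0.08 and 0.08. Tfrc, the transferrin receptor, was at -0.41 at homeostasis, and Slc11a2, an iron transporter, at 0.26 after 5-FU. The 11 targets of NRF2, a regulator of the oxidative stress response, had medians of -0.03 and 0.03. Srxn1 was at 0.53 at homeostasis and Nqo1 at 0.66 after 5-FU, the largest ratios of that list. Of 8 heat shock genes 5 were measured, with medians of -0.12 and -0.02, the largest ratios being -0.25 for Hspe1 and -0.17 for Hsph1. Of the 13 glucocorticoid-induced genes, Zbtb16 (1.72) and Tsc22d3 (1.01) were at least 2-fold higher at homeostasis, where 1.95% of all genes were (Tsc22d3 was named after its values were seen). After 5-FU Zbtb16 was at -0.59, the largest ratio of that list.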
